A study of Mus musculus with 10 samples.

Results

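Rab GTPases are small membrane-bound switches that give each compartment of the secretory and endocytic system its identity. In the GTP-bound state a Rab recruits effectors that move, tether and fuse vesicles. Guanine nucleotide exchange factors (GEFs) load the GTP, GTPase-activating proteins (GAPs) trigger its hydrolysis, and GDP dissociation inhibitors (GDIs) carry the inactive protein through the cytosol. In lymphocytes such traffic brings cytokines and surface receptors to the plasma membrane and takes receptors back into the cell.

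The Rab genes were chosen by name from the count table: a symbol made of Rab, a number and at most a letter and a digit, with pseudogenes left out. Of the 54838 gene rows, 59 carried such a name. At least 1 count was found for 47 of the 59, and 12 were at 0 in every library. By the main traffic step known for each, the 47 fell into 24 secretory, 15 endocytic and 6 recycling Rabs, with Rab23 and Rab28, which are linked to cilia, set apart.

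The counts came from total RNA of lung group 2 innate lymphoid cells (ILC2), the tissue lymphocytes without antigen receptors that release type 2 cytokines. The groups were c-Maf KO and WT, 5 libraries each, from C57BL/6 littermates housed together, all sorted as lin-CD90.2+ST2+/-KLRG1+/- cells after lung inflammation raised with the protease papain. The labels give the genotype as c-Maf KO with no allele, Cre line or promoter, and no age. Separate mice per library are not stated in so many words, and p-values therefore rest on the variation among these 10 libraries. Numbers of libraries follow the deposit order and pair nothing, and every KO library has a later sample number than every WT library.

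KO libraries held 3620002 to 9867580 counts and 4052 to 7660 genes with a count, against 21400938 to 24489987 counts and 10577 to 12744 genes in WT libraries. KO library 1 stood apart, with 93.4% of its counts in 100 genes. Maf, the targeted gene, had 0, 0, 0, 108 and 0 counts in KO libraries 1 to 5 and 3252, 3832, 1412, 1696 and 2727 in WT libraries 1 to 5. The 11 ILC2 markers summed to 4190 to 20500 CPM in KO libraries and 3490 to 5620 CPM in WT libraries (CPM, counts per 1000000 of the TMM-scaled library size, where TMM is edgeR's scaling). TMM factors were 0.1803 in KO library 1, at most 0.9276 in KO and 1.462 to 1.908 in WT. This scaling raises KO values against WT values compared with library size alone. Marker sums per library size alone were not taken, so these sums do not show ILC2 transcripts at WT level in every KO library. Of 8 erythroid markers, 5 passed edgeR's quasi-likelihood test, all higher in KO. The list summed to 191 to 1070000 CPM in KO libraries and 6.27 to 13.3 CPM in WT libraries. The highest sum was that of KO library 1, where Hbb-bs had 421480 and Hba-a1 251111 of 4757345 counts. Its TMM factor of 0.1803 lifts the sum above 1000000, so the sum is no share of that library. Alas2 was at 0 throughout, but 100% of its exon bases lie inside another annotated gene, so it is treated as not measured. Macrophage and dendritic markers summed to 0 to 35.3 CPM in KO libraries and 1.52 to 301 CPM in WT libraries, and the B cell markers to 0 to 282 CPM in KO and 16 to 91.4 CPM in WT. The other 6 marker lists (neutrophil, T cell, epithelial, endothelial and stromal, mast cell and basophil, platelet) summed to at most 322 CPM in any KO library and 254 CPM in any WT library. The part of depth and of these markers in the Rab values was not tested. In bulk RNA, fewer cells of a type and less RNA per cell cannot be told apart.

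A Rab protein is held in its membrane by lipids that are added to cysteines at its C-terminal end. The last 30 coding bases, 5′ to 3′ and with the stop codon, are shown for most of the paralogs whose shares are compared here and for the 5 tested Rabs with at most 3 counts in any KO library. They are GENCODE M21 sequences of GRCm38, on the coding strand, and capitals mark the cysteine codons among the last 5 codons before the stop.
Rab1a: gtcaagcagtcaggtggaggcTGCTGCtaa
Rab1b: gtgaagcctgctagcggtggcTGCTGCtag
Rab2a: ggacagcaggcagggggaggcTGCTGTtga
Rab2b: gacatagggcctgactctggcTGCTGCtga
Rab5a: ccagccagaagccagTGTTGTagtaactga
Rab5b: cagaacaagagccagTGTTGTagcaactga
Rab5c: gccagccggagccagTGCTGCagcaactga
Rab8a: accagcttcttccggTGCagtctcctgtga
Rab8b: accagtttcttccgcTGTtctctgctttga
Rab11a: ccaaaggtgcagTGCTGTcagaacatctaa
Rab11b: aacaagctgcagTGCTGCcagagcctgtga
Rab27a: gagaaggagaaggggttgTGTggcTGTtga
Rab3d: cccccacagccgagcagcTGCagcTGTtag
Rab19: cccaatgagagcacccgcTGTactTGTtga
Rab9: aagcccaagccaaactcatctTGCTGTtga
Rab24: ccttacttctacagcTGTTGTcatcactga
Rab12: cctcccagaccacacgtccgaTGCTGTtga
Of the 45 counted members whose coding end was read, 39 had 2 cysteine codons in this window, next to each other in 26, and 6 had 1. Rab8a and Rab8b, with 1, differ there from the Rab1, Rab2, Rab5 and Rab11 pairs, which have 2. The paralogs are distinct along the whole coding sequence: within the pairs compared, 69.3 to 79.3% of aligned bases were identical and the longest identical run was 11 to 38 bases.

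Some Rabs could not be read from these counts. Rab4a, Rab4b, Rab15, Rab40c and Rab43 have at least 99% of their exon bases inside other annotated genes, and all 5 were at 0. Of 1551 protein-coding genes with that overlap 95.2% were at 0, against 35% of 14204 without any overlap, so the 5 are treated as not measured. Rab4a and Rab4b, Rabs of fast recycling, are therefore not analysed here. The other 7 genes at 0 were Rab9b, Rab13, Rab17, Rab25, Rab33a, Rab34 and Rab39, and none of them overlaps another gene. Rab25 and Rab17 are known mainly from epithelium. Counts of partly overlapped Rabs are uncertain, which holds for Rab10 (69.5% of exon bases inside Rab10os), Rab7 (67.9%), Rab2b (67.7%), Rab24 (62.4%), Rab18 (49.2%), Rab39b (45.8%), Rab26 (32.1%), Rab20 (27.5%) and Rab6a (22%).

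**Figure D1:**
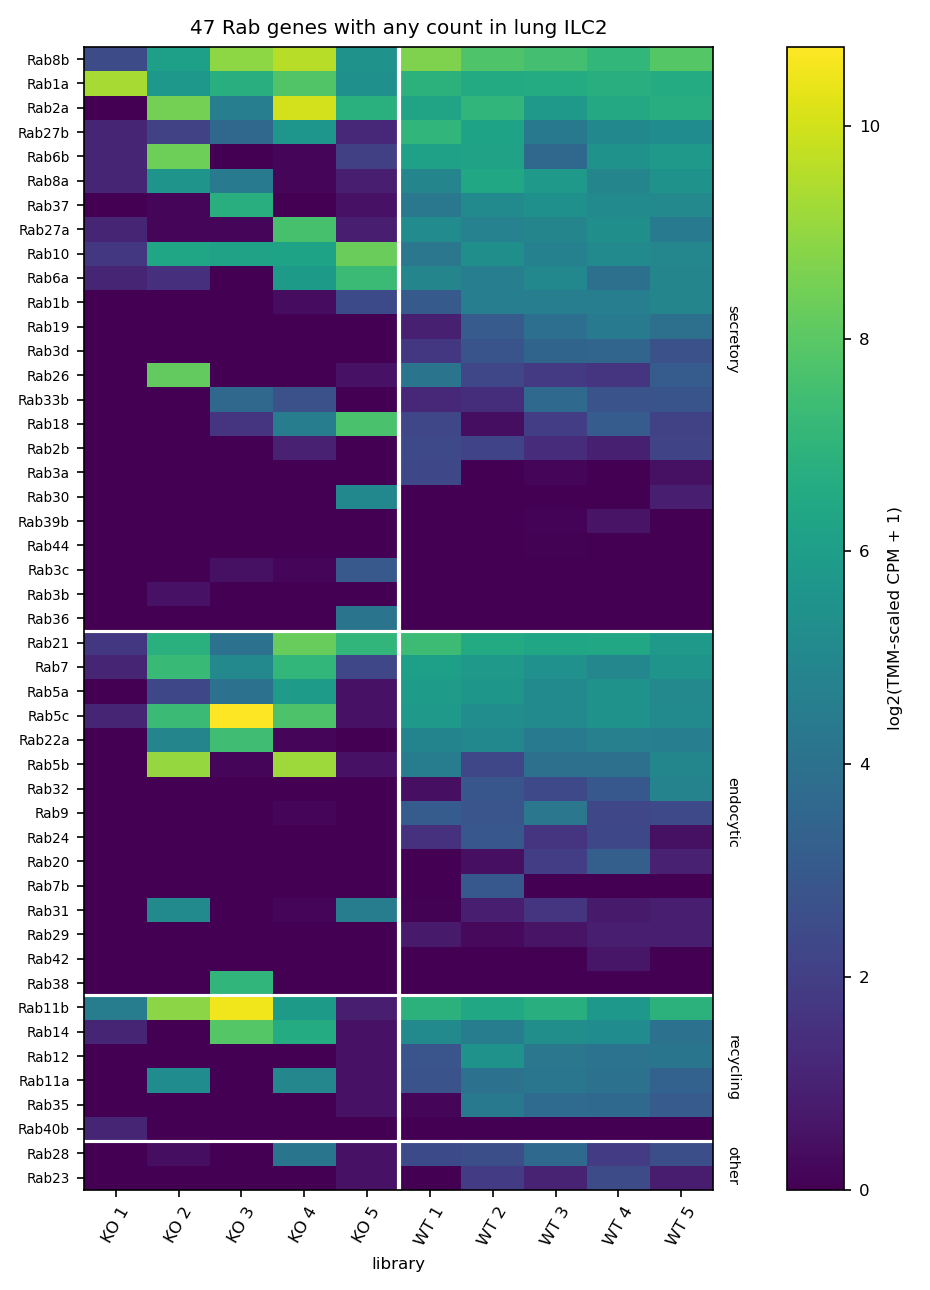
Level of the 47 Rab genes with any count, as log2(TMM-scaled CPM + 1), in 5 KO libraries (left) and 5 WT libraries (right), with rows grouped as secretory, endocytic, recycling and other. WT columns look alike, while each KO column is dark for many genes and bright for a few, and the bright genes differ between KO libraries.

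In WT cells the Rab repertoire was led by secretory Rabs. Per kilobase of exon, Rab8b, which carries vesicles from the Golgi to the plasma membrane, stood at 178 ± 65.8 TPM (SD, n = 5 WT libraries, as for the TPM values below). Rab2a, of traffic between endoplasmic reticulum and Golgi, stood at 161 ± 75.5 TPM and Rab1a, of the same step, at 96.8 ± 14.9 TPM. The endocytic Rabs Rab5c (66.5 ± 13.5 TPM), Rab21 (66.5 ± 22.7 TPM) and Rab7 (66.4 ± 20.7 TPM) came next. These act on early endosomes, on integrin uptake and on late endosomes. Rab11b, of the recycling endosome, followed at 56.3 ± 19.5 TPM.

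Rab8a (38.6 ± 23.2 TPM), the Golgi Rab6b (38.0 ± 20.2 TPM), Rab1b (34.7 ± 16.8 TPM), the exocytic Rab10 (31.5 ± 13.1 TPM) and Rab5a (30.3 ± 8.17 TPM) completed the 12 highest. The granule Rabs were lower: Rab27a at 27.6 ± 6.63 TPM, Rab37 at 22.0 ± 6.73 TPM, Rab27b at 19.5 ± 13.5 TPM and Rab3d at 5.85 ± 2.75 TPM. Every Rab in this order overlapped its neighbour, so no step between neighbours exceeded the spread. When length was taken as exon bases outside every other gene, a setting chosen after the data were seen, the same 12 were highest but Rab7 led. Per base of the whole gene, also chosen later, 9 of the 12 stayed and Rab11b led. The sources used here do not say whether intronic reads were counted.

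**Figure D2:**
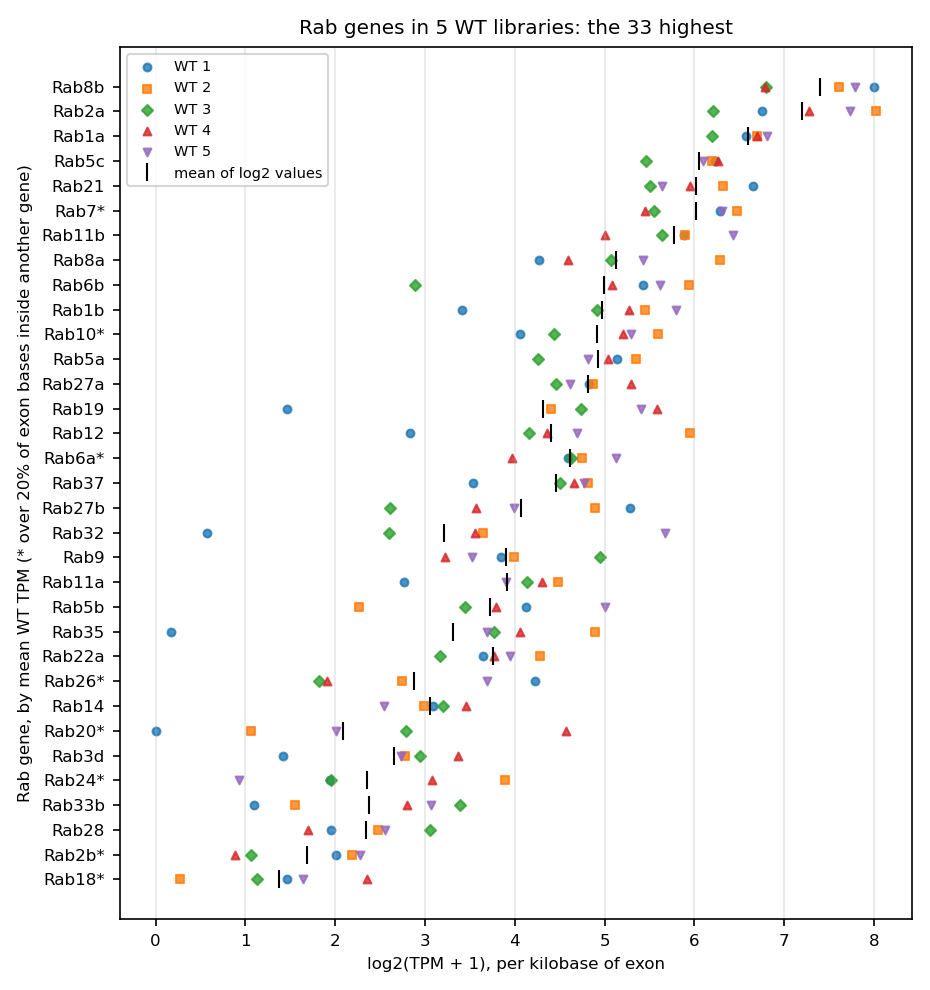
log2(TPM + 1) of the 33 highest Rab genes in each of the 5 WT libraries, ordered by mean WT TPM, with a bar at the mean of the log2 values. Rab8b, Rab2a and Rab1a are at the top, symbols of neighbouring genes overlap, and WT library 1 is far below the others for Rab19, Rab32, Rab35 and Rab1b.

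The coefficient of variation over WT libraries had a median of 43.5% in 31 Rab genes and 55.2% in all 7490 genes tested, a description with no test. It was 9.91% for Rab1a, whose WT values were 118, 93.6, 96.6, 106 and 95.5 CPM, and 92% for Rab26, a Rab of granule maturation, whose WT values were 16.6, 3.89, 2.52, 2.1 and 7.67 CPM. WT library 1 was the lowest of the 5 for 10 of 31 Rabs and for 28.1% of all genes tested.

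In KO libraries the Rab counts were patchy. Genes with 3 counts or fewer in a library are called missing from it. Of the 47 Rab genes with any count, 3, 18, 17, 19 and 14 were present in KO libraries 1 to 5, against 34, 37, 37, 38 and 38 in WT libraries 1 to 5. As shares, KO libraries 1 to 5 held 6.38, 38.3, 36.2, 40.4 and 29.8% of these Rabs and 8.3, 16.7, 26.5, 22.2 and 19.8% of all 19014 genes with any count. WT libraries held 72.3 to 80.9% of these Rabs and 47.3 to 59.3% of all 19014 genes. The Rab share was above that of all genes in every library except KO library 1. In all 5 KO libraries 11 of the 47 Rabs were at 0 (23.4%, where 30.4% of all 19014 genes were) and 17 had at most 3 counts (36.2%, where 52.7% of all 19014 genes had).

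The leading Rab differed between the KO libraries. It was Rab1a in KO library 1 (93.9% of all Rab counts), Rab5b in KO library 2 (19.3%), Rab5c in KO library 3 (37.3%), Rab2a in KO library 4 (26.4%) and Rab10 in KO library 5 (28.2%). Rab8b led in every WT library, with 13.4 to 25.9%. Summed over the 47 genes and per library size alone, Rabs took 124 to 3870 CPM in KO libraries (mean 1900) and 1660 to 2450 CPM in WT libraries (mean 2100). With TMM scaling the sums were 692 to 4590 CPM in KO libraries (mean 2610) and 1040 to 1540 CPM in WT libraries (mean 1230), so which group had the higher mean turned with the scaling.

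**Figure D3:**
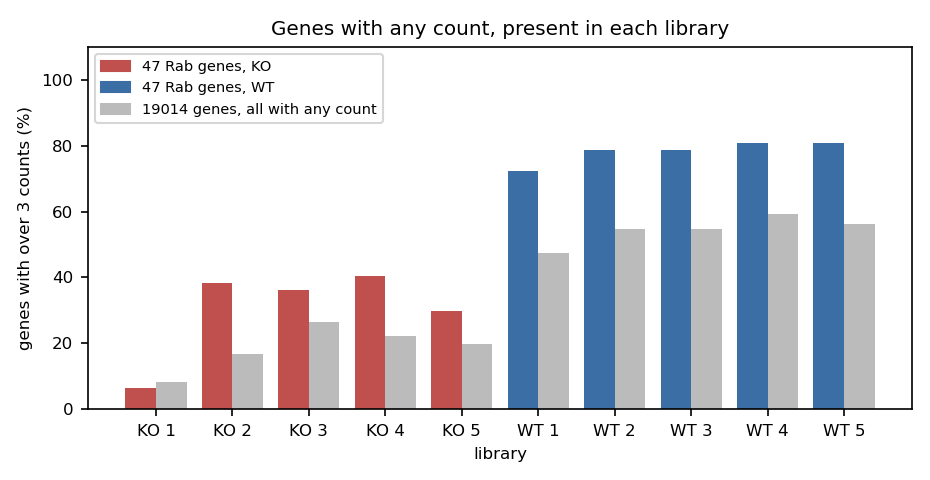
Share of genes with more than 3 counts in each library, as percent, for the 47 Rab genes with any count (red in KO, blue in WT) and all 19014 genes with any count (grey). KO libraries hold 6.38 to 40.4% of the Rabs and WT libraries 72.3 to 80.9%.

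KO and WT libraries were compared to find which transcripts depend on the c-Maf genotype. Of the 31 Rab genes tested, 6 were lower in KO by edgeR's quasi-likelihood test (Benjamini-Hochberg adjusted p under 0.05), that is 19.4%, where 27.1% of all tested genes were lower. The share of Rabs called lower is under that background and says nothing particular about Rabs. No Rab was called higher, where 1.5% of all tested genes were. At an unadjusted p of 0.05, 7 Rabs were lower and 1, Rab31, was higher, and the share of all tested genes at that p was not taken. DESeq2, run on all genes with any count, called 5 of 47 Rabs higher (Rab1a, Rab3c, Rab5c, Rab10 and Rab31), where it called 7.95% of all genes higher, and 7 lower, where it called 13.7% lower. On the 31 Rabs, limma-voom called 0 higher (0.948% of all tested genes) and 9 lower (33.2%). The median log2 fold change was 0.25 over the 31 Rabs and −0.47 over all genes tested. The filter keeps genes that reach its minimum in 5 libraries, so a Rab at 0 in every KO library passed it through WT alone, and these counts describe the 31 genes kept. Without KO library 1, which stood apart, 36 Rabs were tested, of which 9 were lower (33.7% of all genes tested were) and 0 higher (3.72%).

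With RLE size factors the medians were 0.47 for Rabs and 0.09 for all genes, and with library size alone −0.95 and −1.77. No Rab was called higher with RLE (2.58% of all tested genes were) or with library size alone (0.654%). With RLE 6 Rabs were called lower (24.2% of all tested genes were), and with library size alone 7 (31.1%). The sign of the fold change of 9 Rabs turned with library size alone, and none of the 9 passed the test under either scaling.

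**Figure D4:**
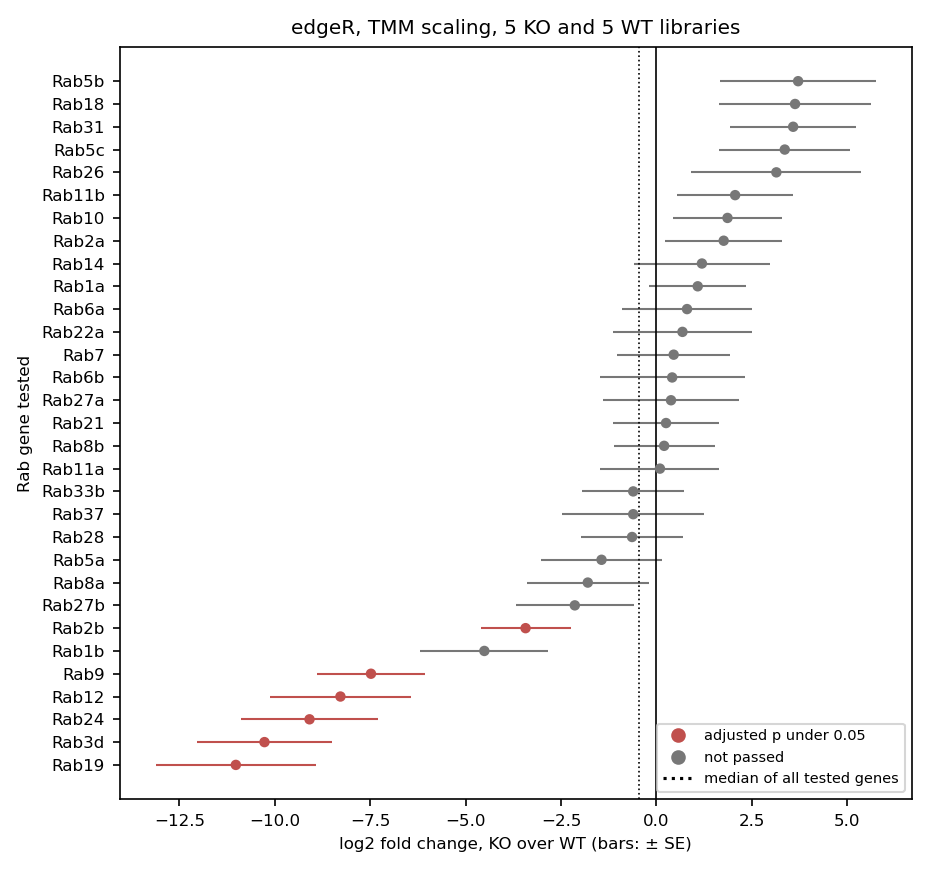
log2 fold change of KO over WT for the 31 Rab genes tested, with bars of ± 1 SE, from edgeR with TMM scaling on 5 KO and 5 WT libraries. Of 6 genes below the adjusted p of 0.05 (red), 5 lie at −7.48 or lower and Rab2b at −3.43, and the other 25 (grey) range from −4.51 to 3.71 around the median of all genes at −0.47.

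Among the secretory Rabs, 3 of the 17 tested fell in KO (17.6%) and 0 rose, with a median log2 fold change of 0.20. Of all tested genes 27.1% fell and 1.5% rose. Rab3d, a Rab of regulated granule exocytosis (chromosome 9, 21907491 to 21918192, minus strand, GRCm38), had 0 counts in all 5 KO libraries and 81, 263, 330, 475 and 237 counts in WT libraries 1 to 5. It was at least 55.1-fold lower in KO, with the KO group set to 3 counts in total, and had an edgeR adjusted p of 0.00163. Rab19, a less studied Rab (chromosome 6, 39381175 to 39390380, plus strand), had 0 counts in all 5 KO libraries and 32, 338, 472, 896 and 648 counts in WT libraries 1 to 5. In KO it was lower by at least 94.9-fold (adjusted p = 0.00163, edgeR). The groups did not overlap for either gene, and WT library 1 was the lowest for both.

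Rab2b, a close relative of Rab2a, was the third (chromosome 14, 52261759 to 52279545, minus strand). It had 0, 0, 0, 7 and 0 counts in KO libraries 1 to 5 and 145, 158, 53, 43 and 159 in WT libraries 1 to 5. With TMM scaling KO library 4, at 0.998 CPM, overlapped WT library 4, at 0.951 CPM. Per library size alone KO library 4 held 0.709 CPM and WT libraries 1.78 to 6.8 CPM, so the groups did not overlap. Its log2 fold change was −3.43 (SE 1.18, edgeR adjusted p = 0.0364), and the call was lost with DESeq2 (adjusted p = 0.119), with limma-voom (adjusted p = 0.085) and in 6 of the 10 fits that left out a library. Most of its exon bases lie inside Tox4 and Gm43766, and the sources used here give no strand setting for the counting.

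Rab1a was present in every KO library. It stood at 649, 52.1, 107, 226 and 40.7 CPM in KO libraries 1 to 5 and 118, 93.6, 96.6, 106 and 95.5 CPM in WT libraries 1 to 5. With TMM scaling KO values lay on both sides of the WT range, with a log2 fold change of 1.08 (SE 1.27, edgeR adjusted p = 0.596) that was 0.08 without KO library 1. Per library size alone Rab1a stood at 25.7 to 161 CPM in KO libraries and 150 to 198 CPM in WT libraries. No KO library was then above every WT library, and the log2 fold change was −0.97. Rab1a and Rab8b were the Rabs with over 3 counts in every KO library, 6.45% of 31 against 7.06% of all tested genes.

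Rab1b, which acts with Rab1a, had 0, 0, 0, 2 and 10 counts in KO libraries 1 to 5 and 253, 1034, 775, 1034 and 1238 counts in WT libraries 1 to 5. Every KO library lay below every WT library, but the log2 fold change of −4.51 (SE 1.68) missed the threshold (edgeR adjusted p = 0.0536). It passed with library size alone (adjusted p = 0.0248), with limma-voom (adjusted p = 0.0131) and without KO library 5 (adjusted p = 0.00443). Rab2a stood at 0, 365, 23.3, 1030 and 112 CPM in KO libraries 1 to 5 and 75.5, 132, 54.7, 88.6 and 102 CPM in WT libraries 1 to 5. KO libraries 2, 4 and 5 were above the WT mean of 90.5 CPM, KO libraries 1 and 3 were below every WT library, and the adjusted p was 0.459 (edgeR). Per library size alone KO library 5, at 70.7 CPM, was also below every WT library (85.1 to 241 CPM).

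The Golgi Rabs Rab6a and Rab6b had their KO counts in different libraries. Rab6a stood at 1.18, 1.8, 0, 57.6 and 158 CPM in KO libraries 1 to 5 and 28.5, 22.9, 30.9, 14.6 and 28.7 CPM in WT libraries 1 to 5. Rab6b stood at 1.18, 332, 0, 0.143 and 3.07 CPM in KO libraries 1 to 5 and 70.2, 72.2, 11.3, 44.5 and 54.8 CPM in WT libraries 1 to 5. KO library 2 held 99.6% of the KO counts of Rab6b. With it the log2 fold change was 0.41 (edgeR adjusted p = 0.904), and without it −5.2 (adjusted p = 0.0335).

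Exocytic carriers showed the same spread. Rab8b stood at 4.71, 66.5, 476, 758 and 44.7 CPM in KO libraries 1 to 5 and 399, 219, 183, 139 and 236 CPM in WT libraries 1 to 5, a log2 fold change of 0.20 (SE 1.32, edgeR adjusted p = 0.937). Per library size alone its highest KO value, 539 CPM in KO library 4, was under the 579 CPM of WT library 1. The log2 fold change of Rab8b was then −0.88. Rab8a stood at 1.18, 46.7, 19.9, 0.143 and 0.876 CPM in KO libraries 1 to 5 and 28.3, 85.7, 53.7, 29 and 44.4 CPM in WT libraries 1 to 5. For Rab8a with TMM scaling, every KO library but the second was below every WT library. Per library size alone all were, with at most 34.2 CPM in KO and at least 41 CPM in WT. The log2 fold change of Rab8a was −1.80 (edgeR adjusted p = 0.467) and passed with limma-voom (−4.02, adjusted p = 0.0435). Rab10 stood at 2.35, 79.7, 71.5, 73.7 and 309 CPM in KO libraries 1 to 5 and 18, 39.5, 25.6, 33.9 and 30.5 CPM in WT libraries 1 to 5. With TMM scaling Rab10 was above every WT library in KO libraries 2 to 5, in more of them than any other tested Rab. Per library size alone those libraries held 58.5, 60.3, 52.4 and 195 CPM, and WT libraries 26.2 to 72.2 CPM. Only KO library 5 was then above every WT library. The log2 fold change of Rab10 was 1.86 (SE 1.44, edgeR adjusted p = 0.397) and passed with DESeq2 (adjusted p = 0.049). It was 0.94 without KO library 5 and 0.6 with library size alone.

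The Rabs of regulated secretion were each carried by few KO libraries. Rab27a, which docks secretory lysosomes at the plasma membrane, had 1, 1, 1, 1351 and 2 counts in KO libraries 1 to 5 and 1218, 1166, 952, 1806 and 908 in WT libraries 1 to 5. KO library 4, at 193 CPM, was above every WT library (20.7 to 40 CPM) and the other 4 were below. The log2 fold change was 0.38 (edgeR adjusted p = 0.907), and −5.57 without KO library 4 (adjusted p = 0.0116).

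Rab27b, its paralog, had 1, 22, 81, 346 and 3 counts in KO libraries 1 to 5 and 4670, 3272, 636, 1411 and 1579 in WT libraries 1 to 5. Every KO library but the fourth was below every WT library, and its log2 fold change of −2.14 (edgeR adjusted p = 0.359) passed with limma-voom (−3.66, adjusted p = 0.035). Rab37, a granule Rab known from mast cells, had 0, 1, 759, 0 and 1 counts in KO libraries 1 to 5 and 649, 1545, 1345, 1570 and 1398 in WT libraries 1 to 5. KO library 3 was above every WT library, with a log2 fold change of −0.61 (edgeR adjusted p = 0.852), and −7.53 without it (adjusted p = 0.00605).

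Rab26 had 0, 1925, 0, 0 and 1 counts in KO libraries 1 to 5 and 580, 174, 84, 95 and 337 in WT libraries 1 to 5. Its log2 fold change was 3.14 (edgeR adjusted p = 0.351), and −6.11 without KO library 2 (adjusted p = 0.0129). Rab18, of the endoplasmic reticulum and lipid droplets, had 0, 0, 15, 155 and 456 counts in KO libraries 1 to 5 and 138, 15, 95, 344 and 144 in WT libraries 1 to 5, with KO on both sides of WT (log2 fold change 3.63, SE 2.0, edgeR adjusted p = 0.214). Without KO library 5 the value was 0.79. Rab33b, a Golgi Rab that binds an autophagy factor, was missing from 3 KO libraries, and its adjusted p was 0.79. Rab3a, the synaptic vesicle Rab, was not tested: it had 0 counts in all 5 KO libraries and 141, 0, 5, 0 and 18 counts in WT libraries 1 to 5.

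Among the endocytic Rabs, 2 of the 9 tested fell in KO (22.2%) and 0 rose, with a median log2 fold change of 0.45. Of all tested genes 27.1% fell and 1.5% rose. Rab9, which returns mannose 6-phosphate receptors from late endosomes to the Golgi (chromosome X, 166457253 to 166479867, minus strand), had 0, 0, 0, 1 and 0 counts in KO libraries 1 to 5 and 270, 278, 611, 177 and 182 counts in WT libraries 1 to 5. The ratio of WT over KO was 181 (95% counting interval 32.5 to 7160), with an edgeR adjusted p of 0.00163. Rab24, linked to autophagy (chromosome 13, 55319743 to 55321946, minus strand), had 0 counts in all 5 KO libraries and 66, 296, 68, 183 and 18 counts in WT libraries 1 to 5. In KO it was lower by at least 25.1-fold (adjusted p = 0.00175, edgeR). The groups did not overlap for either gene. Exons of Rab24 lie mostly inside Prelid1, so its counts are uncertain.

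The Rab5 paralogs, which drive fusion of early endosomes, were high in different KO libraries. Rab5a stood at 0, 4.05, 15.7, 60.9 and 0.438 CPM in KO libraries 1 to 5 and 59.7, 50.1, 33.7, 45 and 32.4 CPM in WT libraries 1 to 5. Rab5b stood at 0, 533, 0.137, 580 and 0.438 CPM in KO libraries 1 to 5 and 22.8, 3.82, 14.6, 14.5 and 29.7 CPM in WT libraries 1 to 5. Rab5c stood at 1.18, 159, 1710, 216 and 0.438 CPM in KO libraries 1 to 5 and 53.7, 37.7, 33.2, 44.8 and 33.4 CPM in WT libraries 1 to 5. KO libraries 1 and 5 lacked all 3 paralogs, Rab5b was high in KO libraries 2 and 4, and Rab5c was above every WT library in KO libraries 2, 3 and 4. None passed: the log2 fold changes were −1.44 for Rab5a (SE 1.59, edgeR adjusted p = 0.568), 3.71 for Rab5b (SE 2.04, adjusted p = 0.213) and 3.36 for Rab5c (SE 1.71, adjusted p = 0.173). Rab5c passed with DESeq2 (adjusted p = 0.0335), but its log2 fold change was 1.19 without KO library 3, which held 82.9% of its KO counts, and −0.53 with limma-voom. Rab5a passed as lower with limma-voom (adjusted p = 0.0353). Per library size alone Rab5a reached at most 43.3 CPM in KO and at least 52.4 CPM in WT, so no KO library was then above or within the WT range.

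Rab7, the Rab of late endosomes, stood at 1.18, 153, 32.5, 137 and 3.94 CPM in KO libraries 1 to 5 and 66.2, 54.9, 42.1, 30 and 46.3 CPM in WT libraries 1 to 5. Rab21 stood at 2.35, 111, 15.6, 304 and 135 CPM in KO libraries 1 to 5 and 166, 94.9, 78.7, 82.9 and 55.9 CPM in WT libraries 1 to 5. For both, KO values with TMM scaling lay above and below the WT range, and the edgeR adjusted p was 0.864 for Rab7 and 0.923 for Rab21. Per library size alone the highest KO value of Rab21, 216 CPM in KO library 4, was under the 240 CPM of WT library 1. Rab22a, an early endosome Rab, stood at 0, 28.5, 175, 0.143 and 0 CPM in KO libraries 1 to 5 and 27.4, 31.6, 20.2, 24.3 and 23.5 CPM in WT libraries 1 to 5 (edgeR adjusted p = 0.828).

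Its relative Rab31 had the lowest WT counts of the tested Rabs. It had 0, 220, 0, 1 and 52 counts in KO libraries 1 to 5 and 2, 38, 72, 33 and 39 in WT libraries 1 to 5. KO libraries 2 and 5 were above every WT library, and the log2 fold change of 3.58 (SE 1.65, edgeR adjusted p = 0.128) passed with DESeq2 (adjusted p = 0.0421).

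Rab32 and Rab20 were among the endocytic Rabs that the filter left untested. Rab32, of lysosome-related organelles, had 0 counts in all 5 KO libraries and 13, 286, 138, 306 and 1169 in WT libraries 1 to 5, at least 76.1-fold lower in KO. Rab20, of phagosome maturation, had 0 counts in all 5 KO libraries and 0, 16, 96, 384 and 42 in WT libraries 1 to 5. With no filter on low counts, edgeR called 8 of 47 Rabs lower, where it called 15.9% of all genes lower, and 3 higher, where it called 12.3% higher. Rab32 (adjusted p = 0.00948) and Rab20 (adjusted p = 0.0281) were among the lower ones, and the counts of Rab20 are uncertain, with 27.5% of its exon bases inside another gene. Rab38, which shares the organelles of Rab32, had 968 counts in KO library 3 and 0 in the other 4 KO libraries and in all WT libraries. With no filter edgeR called it higher (adjusted p = 0.00927) on that 1 library.

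The 4 recycling Rabs tested had a median log2 fold change of 0.64. In KO 0 of them rose (1.5% of all tested genes did) and 1 fell (25%, where 27.1% of all tested genes did). This was Rab12, which sends transferrin receptors from recycling endosomes to lysosomes (chromosome 17, 66494512 to 66519729, minus strand). It had 0, 0, 0, 0 and 1 counts in KO libraries 1 to 5 and 215, 1973, 597, 719 and 749 counts in WT libraries 1 to 5. The ratio of WT over KO was 507 (95% counting interval 91 to 20000), with an edgeR adjusted p of 0.00211. The groups did not overlap.

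Rab11b, of the recycling endosome, stood at 22.4, 472, 1440, 57.2 and 0.876 CPM in KO libraries 1 to 5 and 117, 85.5, 105, 51.3 and 118 CPM in WT libraries 1 to 5. Its paralog Rab11a stood at 0, 35.9, 0, 30.4 and 0.438 CPM in KO libraries 1 to 5 and 5.73, 15.2, 17.5, 15.1 and 9.51 CPM in WT libraries 1 to 5. With TMM scaling both exceeded every WT library in 2 KO libraries, sharing only KO library 2, and were below or within the WT range in the rest. Per library size alone Rab11a reached 26.3 CPM in KO and 28.2 CPM in WT, so no KO library was above every WT library. The edgeR adjusted p was 0.367 for Rab11b (log2 fold change 2.06, SE 1.51, and 0.55 without KO library 3) and 0.978 for Rab11a (0.09, SE 1.56).

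Rab14, of traffic between early endosomes and the Golgi, stood at 1.18, 0, 237, 95.4 and 0.438 CPM in KO libraries 1 to 5 and 33.6, 22.4, 39.1, 36.7 and 14.9 CPM in WT libraries 1 to 5 (edgeR adjusted p = 0.688). Rab35, of fast recycling, was left untested by the filter. It had 0, 0, 0, 0 and 1 counts in KO libraries 1 to 5 and 4, 868, 415, 533 and 334 in WT libraries 1 to 5, a ratio of WT over KO of 257 (95% counting interval 46.1 to 10200). With no filter, edgeR called it lower (adjusted p = 0.0154). Rab28, the tested ciliary Rab, had 0, 2, 0, 119 and 1 counts in KO libraries 1 to 5 and 150, 220, 389, 123 and 219 in WT libraries 1 to 5 (log2 fold change −0.64, edgeR adjusted p = 0.78). Without KO library 4 its log2 fold change was −4.69 (adjusted p = 0.0145).

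The other 11 counted Rabs left untested were low. Rab7b had 301 counts in WT library 2 and 0 elsewhere, Rab36 had 38 counts in KO library 5 and 0 elsewhere (edgeR adjusted p = 0.0127 with no filter), and Rab30, a Golgi Rab, had 71 counts in KO library 5, 37 in WT library 5 and 0 elsewhere. Of 20 KO counts of Rab3c, 16 were in KO library 5 (edgeR adjusted p = 0.0366 with no filter). Rab23, Rab29, Rab39b, Rab40b, Rab42, Rab44 and Rab3b complete the list. Of these, Rab29 had 0 counts in all 5 KO libraries and was present in every WT library, at 0.633 ± 0.284 CPM (SD, n = 5).

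How far the missing Rabs stand out was read against genes of like level. At most 3 counts in all 5 KO libraries was found for 5 of 31 tested Rabs (16.1%) and for 22.3% of all tested genes, and in at least 4 KO libraries for 11 Rabs (35.5%) and for 51.2% of all tested genes. By WT level per library size, missing from at least 4 KO libraries were 3 of 3 Rabs at 10 to 20 CPM (77.8% of all tested genes there), 3 of 8 at 20 to 50 CPM (61.3%) and 2 of 9 at 50 to 100 CPM (27.3%). None of 4 Rabs at 100 to 200 CPM was missing that often, where 7.51% of all tested genes were. With TMM scaling, all KO libraries lay below every WT library for 6 of 31 Rabs (19.4%), where 28.9% of all tested genes did. All lay above every WT library for 0 Rabs, where 0.774% of all tested genes did. Rab2b, Rab5a and Rab8a also lay wholly below WT per library size alone, for which the share of all tested genes was not taken. With TMM scaling, at least 1 KO library lay above every WT library for 21 of 31 Rabs (67.7%), where 56.5% of all tested genes did. These are descriptions without a test, and because a gene low in KO passed the filter through WT, they hold for tested genes only.

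Shares within paralog groups do not depend on the scaling of libraries. They were compared for 7 groups over libraries with at least 20 counts in the group, by exact two-sided permutation tests. Rab1a took 98.0 ± 4.33% of the Rab1a and Rab1b counts in KO (n = 5) and 82.9 ± 6.58% in WT (n = 5), higher in 4 of 5 KO libraries than in any WT library. The exact permutation p was 0.0159 and the adjusted p over the 7 groups 0.0556. Rab2a took 99.9 to 100% of the Rab2a and Rab2b counts in 4 KO libraries and 94.8 to 98.9% in 5 WT libraries, without overlap. Its exact permutation p of 0.0159 was the smallest that 4 against 5 libraries allow, and the adjusted p was 0.0556.

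Rab5a took 0.582, 0.912 and 7.1% of the Rab5 counts in KO libraries 2, 3 and 4, and 43.8, 54.7, 41.4, 43.2 and 33.9% in WT libraries 1 to 5. The groups did not overlap, and the means were 2.86 ± 3.67% in KO (SD, n = 3) and 43.4 ± 7.44% in WT (SD, n = 5). The exact permutation p of 0.0357 is the smallest that 3 against 5 libraries allow, and the adjusted p was 0.0833. Rab5b took 76.6% of the Rab5 counts in KO library 2 and 67.7% in KO library 4, against 4.17 to 31.1% in WT libraries, and Rab5c took 99.1% in KO library 3, against 35 to 42.9% in WT libraries. None of the 7 groups passed the adjusted threshold. The Rab8a share (11.8 ± 19.7% in KO, n = 4, and 18.1 ± 8.05% in WT, n = 5) had an exact permutation p of 0.54. Leaving out KO library 2 brought it to 1.98% in KO, below every WT library. The exact permutation p was then 0.0357 (0.0833 adjusted), which no result of 3 against 5 libraries can go under. The Rab11a share (13.9 ± 18.3% in KO, n = 3, and 12.8 ± 7.08% in WT, n = 5) had an exact permutation p of 0.929. Rab22a took 48.8 ± 50% of the counts of Rab22a and Rab31 in KO (n = 3) and 96.2 ± 3.53% in WT (n = 5), an exact permutation p of 0.214. The difference of −47.4 percentage points became −73.0 without KO library 3 and −23.0 without KO library 5. Rab27a took 28.4 ± 44.4% of the Rab27 counts in KO (n = 3) and 39.9 ± 17.6% in WT (n = 5), an exact permutation p of 0.643.

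**Figure D5:**
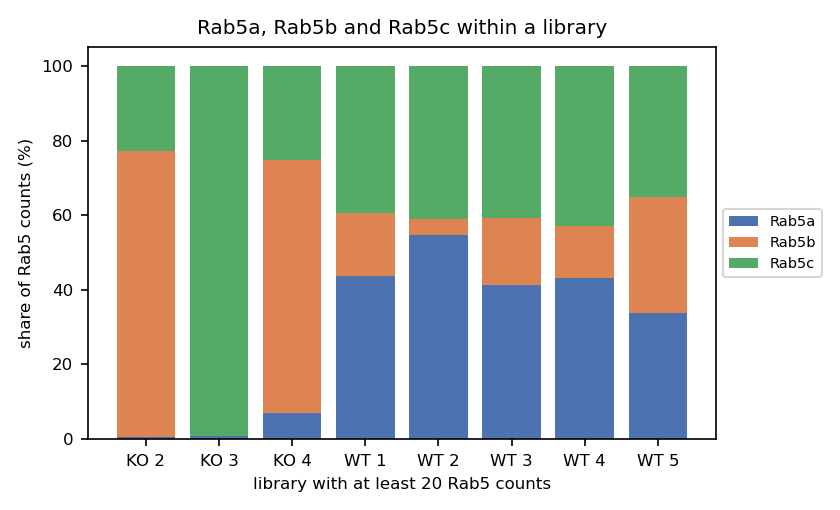
Share of Rab5a, Rab5b and Rab5c in the summed Rab5 counts, as percent, in the 3 KO libraries (left) and 5 WT libraries (right) with at least 20 Rab5 counts. WT bars have all 3 paralogs, with Rab5a at 33.9 to 54.7%, while KO bars are mostly Rab5b or Rab5c, with Rab5a at 0.582 to 7.1%.

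The genes that load, activate and read Rabs were described from 4 lists. Of 108 such genes tested, 32 fell in KO (29.6%, where 27.1% of all tested genes did) and 0 rose, with a median log2 fold change of −0.71. At an unadjusted p of 0.05, 35 were lower and 2 higher, and the share of all tested genes at that p was not taken. DESeq2, run on all genes with any count, called 5 of the listed genes higher, where it called 7.95% of all genes higher. With limma-voom 0 were higher (0.948% of all tested genes). In the list of prenylation and GDI genes, 3 of 5 tested fell (60%, where 27.1% of all tested genes did). Rabggta, the alpha subunit of the geranylgeranyl transferase that lipidates Rabs, had 0, 1, 0, 0 and 0 counts in KO libraries 1 to 5 and 139, 132, 192, 483 and 99 in WT libraries 1 to 5, a ratio of WT over KO of 125 (95% counting interval 22.3 to 4930, edgeR adjusted p = 0.00163). Rabif, a Rab-binding protein, had 0, 0, 0, 1 and 0 counts in KO libraries 1 to 5 and 125, 1748, 582, 522 and 207 in WT libraries 1 to 5, a ratio of 380 (95% counting interval 68.1 to 15000, edgeR adjusted p = 0.00163).

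Gdi2, the GDI that recovers Rabs from membranes, had 0, 8, 4, 6 and 17 counts in KO libraries 1 to 5 and 2391, 4694, 3009, 6404 and 4023 in WT libraries 1 to 5. It was low in all 5 KO libraries, with a log2 fold change of −5.62 (SE 1.74, edgeR adjusted p = 0.0195). Chm, the escort protein that presents new Rabs for lipidation, had 0, 712, 1101, 10546 and 557 counts in KO libraries 1 to 5 and 3226, 2627, 2175, 1846 and 1495 in WT libraries 1 to 5, and did not pass (edgeR adjusted p = 0.223).

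Of 37 GEF genes tested, 10 fell (27%) and 0 rose. They included Ankrd27, a GEF of Rab21, Trappc3 and Trappc5, subunits of the Rab1 GEF TRAPP, and Rgp1, a subunit of a Rab6 GEF. Trappc5 had 0 counts in all 5 KO libraries and was lower in KO by at least 59.9-fold (adjusted p = 0.00163, edgeR). Of 26 GAP genes tested, 8 fell (30.8%), among them Tbc1d12, Tbc1d2b, Tbc1d8b and Tbc1d13, a GAP of Rab35. Of 40 effector genes tested, 11 fell (27.5%), among them the Golgi tethers Golga5 and Uso1, the endosomal Rufy1 and the actin oxidase Mical1. Golga5 had 0 counts in all 5 KO libraries and 398, 570, 169, 676 and 395 in WT libraries 1 to 5, lower in KO by at least 87.8-fold (adjusted p = 0.00163, edgeR). These shares lie close to the 27.1% of all tested genes.

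In the 250 bases before the start, TGCTGAC, the core of the MAF recognition element, was found on either strand in 0 of 37 Rab genes with a window in RefSeq (GRCm38.p6) and in 4.31% of 27025 genes. These letters are not in the windows searched, and nothing follows for c-Maf from that.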

How the data were processed

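Total RNA of 10 sorted ILC2 libraries, 5 KO and 5 WT, was sequenced with a strand-specific kit, per the labels' protocols. The authors deposited raw integer counts of reads for each gene. STAR 2.6.0c, SAMtools 1.8, HTSeq 0.9.1 and GRCm38 stand in the submitters' processing notes. Which annotation, strand setting and filters went into the counting is not given in the sources used here. Positions, lengths and coding ends come from GENCODE M21, to which 54809 of 54838 gene identifiers matched, and promoter windows from RefSeq.

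Genes were kept by filterByExpr (minimum of 10 counts), scaled by TMM and compared with the quasi-likelihood test of edgeR 4.0.16 (R 4.3.3), with Benjamini-Hochberg adjustment over the 7490 genes kept and a threshold of 0.05. SE is the size of the log2 fold change over the square root of F. TMM factors were 0.1803 to 0.9276 in KO and 1.462 to 1.908 in WT, so the scaling itself separates the groups. TPM used the union exon length. Floors (3 counts) and exact 95% intervals cover counting error only, since such reads carry no molecular identifiers. The procedure was also run on simulated counts with known fold changes. These drew both groups from WT proportions with the same spread for every gene, unlike the KO libraries here. They therefore do not show how the test behaves on genes missing from most KO libraries. Alternatives were RLE factors, library size alone, DESeq2 1.42.0, limma-voom (limma 3.58.1), other filters, other lengths and each library left out. Permutation tests used SciPy 1.17.1, and coding sequences were aligned with Biopython 1.88.

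The Rab genes, the lists, the markers and the tests were chosen with earlier results of these data known. Named with values are Rabs that passed the test, the 12 highest in WT, the canonical secretory, endocytic and recycling Rabs whatever their result, and Rabs over 3 counts in every KO library; of other genes, at most 4 per list that passed, by smallest adjusted p. Other genes given with values, such as Rab26, Rab28, Rab29, Rab30, Rab33b, Rab36, Rab38, Rab3c, Rab7b and Chm, were added after their values were seen.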

Additional observations from a re-analysis of the deposited data

Results flagged for a closer look

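Among 78 groups of 5 or 4 libraries examined, 16 held a library that stood far from the others, where chance flags about 1 in 20 groups, and many KO groups hold several values at or near 0. KO library 2 stood above the other KO libraries for Rab6b (332 CPM) and Rab26 (289 CPM), and for the share of Rab8a in the Rab8 counts (41.2%). KO library 4 stood above them for Rab27a (193 CPM), Rab28 (17.0 CPM), Rab2b (0.998 CPM) and Rab9 (0.143 CPM, from 1 count), and below them for the share of Rab2a in the Rab2 counts (99.9%). KO library 3 stood above the others for Rab37 (104 CPM), and KO library 5 for Rab1b (4.38 CPM) and Rab12 (0.438 CPM, from 1 count). KO library 5 was also the lowest for the share of Rab1a in the Rab1 counts (90.3%). KO library 1 had the largest share of Rab counts in its leading Rab (93.9%). Among WT libraries, WT library 3 was low for Rab6b (11.3 CPM), and WT library 1 was low for Rab1b (7.25 CPM) and for the number of tested Rabs present (30).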

How the results depend on the processing

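No paired analysis was possible because the replicate numbers follow the order of deposit and pair nothing. Rab3d, Rab19, Rab9 and Rab12 were called lower in all 16 alternatives. Rab24 was called lower in all 12 in which it was tested, and failed the filter without WT library 1, 2, 3 or 4. All of these genes had 0 or 1 counts in total over the KO libraries and passed the filter through WT. The alternatives reuse the same absent KO counts and are no separate support. Fits that left out a library called 4 to 12 Rabs lower (6 with all 10 libraries), with 11, 10, 12 and 11 without KO libraries 2, 3, 4 and 5, among 30 to 36 Rabs tested and where 23.8 to 37.9% of all genes tested were lower, and 0 to 1 higher, which was Rab31 without KO library 3 or 4. Leaving out a KO library raised the number of genes tested to 8812 to 8953. Higher Rabs numbered 5 of 47 with DESeq2, 3 of 47 with no filter and 2 of 39 with a filter on the mean, where 7.95, 12.3 and 10.9% of all genes tested were higher. Without Rabs over 20% overlapped, an added choice, 4 were lower in the main fit, where 27.1% of all tested genes, whatever their overlap, were. Higher pathway genes numbered 1 with RLE, 5 with DESeq2, 4 with no filter, 3 with a filter on the mean and 0 to 3 with a library left out. Of all genes tested, 2.58, 7.95, 12.3, 10.9 and 1.11 to 3.72% were higher in these settings. Over all genes, the 2027 lower calls became 3074 with a filter on the mean and 1734 to 3350 with a library left out. The 112 higher calls became 193 with RLE, 49 with library size alone, 1512 with DESeq2, 71 with limma-voom, 2345 with no filter, 1170 with a filter on the mean and 82 to 333 with a library left out.

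The median log2 fold change of Rabs was −0.95 with library size alone, −2.85 with limma-voom, −0.24 with no filter and −0.87 to 0.41 with a library left out. The sign turned for 14 Rabs with limma-voom. With a library left out, the log2 fold change was −5.2 to 0.71 for Rab6b and −6.11 to 3.85 for Rab26, called lower without KO library 2, and −5.57 to 0.68 for Rab27a, called lower without KO library 4. Each was carried in KO by the library left out. Tested Rabs missing from every KO library numbered 3 at 0 counts (5 at up to 3 counts) and 5 to 8 with a KO library left out, the 8 without KO library 4. The Rab11a share differed by −0.727 percentage points per length (1.08 by counts) and by −9.3 to 8.04 with a library left out, and the Rab27a share by −37.1 to 2.07 (−11.5 with all). The cause of the other changes was not tested. KO libraries held 588 to 33488 Rab counts and WT libraries 35557 to 59907, and the part of depth in the calls was not tested. A p above the threshold does not show that a Rab stayed the same.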
